A study of Canis lupus familiaris with 30 samples.

Results

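The PI3K, AKT and FOXO1 genes describe 1 signalling axis in canine lymphoma (cL). The list held 7 genes, PIK3CA, PIK3CD, PIK3R1, AKT1, AKT2, FOXO1 and MTOR, and a gene was included where a table published with the study paired its symbol with an Ensembl gene ID of CanFam3.1. 3 of the 7 had such an ID among the 32704 gene IDs measured: PIK3CA (ENSCAFG00000011212), AKT2 (ENSCAFG00000005388) and FOXO1 (ENSCAFG00000005965). PIK3CD, PIK3R1, AKT1 and MTOR were not analysed here.

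RNA of lymph node cells was sequenced from 15 dogs with lymphoma, with 1 library at the six-week timepoint and 1 at the initial timepoint of each dog, 30 libraries in all. The initial sample was taken before treatment and the six-week sample 6 weeks into CHOP, a protocol of cyclophosphamide, doxorubicin, vincristine and prednisone that all dogs received. By immunophenotype the groups were 3 T-cell dogs (028, 036 and 038), 5 dogs with no immunophenotype recorded (024, 025, 026, 031_032 and 035, called untyped here) and 7 B-cell dogs (003, 027, 029, 030, 033, 034 and 037). Dogs of any breed, sex and age were eligible and an injection of prednisone before the first sample was allowed. Each sample was a fine needle aspirate of an enlarged node, so that it holds whichever cells the needle drew, and in such bulk RNA fewer cells of a type and less RNA per cell cannot be told apart. The 2 libraries of dog 031_032 carry different numbers and were paired because no other partner was left.

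PI3K is a lipid kinase that is switched on by antigen receptors, costimulatory receptors and cytokine receptors of lymphocytes and makes the membrane lipid PIP3. PIP3 recruits the AKT kinases, which phosphorylate FOXO factors and so keep them out of the nucleus, and which also feed the growth-promoting mTOR complexes. With the pathway quiet, FOXO1 is nuclear and drives genes of resting and recirculating lymphocytes, such as that for the IL-7 receptor. In B-cell development FOXO1 is also needed for immunoglobulin gene rearrangement. All of this control acts on lipids and on proteins, and the values below are RNA levels.

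Levels are given as FPKM, read fragments scaled by transcript length and by the mapped reads of the library. Total read counts per library were 4318394 to 43413353. In 18 libraries of 9 dogs the deposited counts and FPKM ranked the genes alike (Spearman's rho 0.880 to 0.984), whereas in the 12 libraries of dogs 024, 027, 028, 029, 030 and 035 they did not (0.0868 to 0.117), for a cause that was not tested. FPKM was therefore used throughout, and counts only in the 18 libraries. In these, 383 to 10095 reads lay behind a PIK3CA value, 54 to 835 behind an AKT2 value and 83 to 714 behind a FOXO1 value. Immunophenotype labels were compared with marker scores, a score being the mean log2(FPKM + 1) over a marker list. Of the B cell defining markers, CD22 and PAX5 had a gene ID and MS4A1 and CD79A did not, while CD3E, CD3D, LCK and CD5 had one for T cells. At the initial timepoint the T cell score was 6.40 in dog 028 and 6.48 in dog 036 but 2.52 in dog 038, the remaining T-cell dog, whose B cell score was 6.09. Dog 029, labelled B-cell, had a T cell score of 5.87 beside a B cell score of 4.89. The scores of dog 038 went against its label and those of dog 029 were high for both cell types, and the comparisons of T-cell with B-cell dogs at each timepoint are given with and without these dogs.

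PIK3CA encodes the p110-alpha catalytic subunit of PI3K. It was the most abundant of the 3 genes, at 34.8 ± 12.6 FPKM at the six-week timepoint and 40.7 ± 9.13 FPKM at the initial timepoint (SD, n = 15 each). It exceeded AKT2 in 30 of 30 libraries, with a median ratio of 4.35, and FOXO1 in 29 of 30. The exception was the six-week library of dog 029, where FOXO1 stood above PIK3CA with 28.9 against 26.4 FPKM. AKT2 encodes 1 of the AKT kinases, known for its role in the insulin response, and averaged 8.27 ± 2.83 FPKM at the six-week timepoint and 9.14 ± 3.34 FPKM at the initial timepoint (SD, n = 15 each). FOXO1 averaged 9.89 ± 6.60 and 8.33 ± 5.92 FPKM at the same timepoints. AKT2 and FOXO1 had no fixed order, since AKT2 was higher in 17 of 30 libraries.

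The 3 genes differed in how much they varied between dogs. At the initial timepoint the highest dog had 2.25 times the PIK3CA FPKM of the lowest, against 3.41 times for AKT2 and 6.99 times for FOXO1. The SD of log2(FPKM + 1) was 0.30 for PIK3CA, 0.42 for AKT2 and 0.67 for FOXO1. Among the 13565 genes tested at the initial timepoint these SDs stood at percentiles 15.6, 37.9 and 70.3, while the mean levels stood at percentiles 84.5, 52.7 and 48.8. PIK3CA was thus abundant and even between dogs, and FOXO1 was of middling abundance and uneven.

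Across dogs, PIK3CA was high in both libraries of some and low in both of others. In T-cell dogs 028, 036 and 038 it was at 31.5, 23.5 and 17.8 FPKM at the six-week timepoint, against 37.1, 34.3 and 28.0 FPKM at the initial timepoint. Each T-cell dog was lower at 6 weeks, and the ranges at the 2 timepoints overlapped. In untyped dogs 024, 025, 026, 031_032 and 035 it was at 53.7, 22.1, 43.2, 24.8 and 46.1 FPKM at the six-week timepoint, against 41.3, 41.0, 41.7, 37.2 and 47.3 FPKM at the initial timepoint. The untyped dogs were close to one another before treatment and spread apart at 6 weeks, with dogs 025 and 031_032 low. In the 7 B-cell dogs the lowest, median and highest values were 26.4, 32.4 and 56.8 FPKM at the six-week timepoint, against 29.0, 38.5 and 62.8 FPKM at the initial timepoint. Dogs 037 and 027 were the 2 highest B-cell dogs at both timepoints, and dog 029 the lowest at both.

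AKT2 differed in direction between dogs. In T-cell dogs 028, 036 and 038 it was at 8.87, 5.76 and 7.51 FPKM at the six-week timepoint, against 5.61, 9.86 and 18.5 FPKM at the initial timepoint. The initial library of dog 038 was the highest of all 30 for AKT2. In untyped dogs 024, 025, 026, 031_032 and 035 it was at 11.4, 7.08, 6.94, 10.3 and 6.71 FPKM at the six-week timepoint, against 10.4, 6.56, 8.26, 9.33 and 6.85 FPKM at the initial timepoint, and the largest log2 change among them was -0.22 in dog 026. In the B-cell dogs the lowest, median and highest values were 3.75, 7.55 and 15.5 FPKM at the six-week timepoint, against 5.41, 9.14 and 13.4 FPKM at the initial timepoint. The low end at 6 weeks was dog 033, which had 9.93 FPKM before treatment. Its six-week library had the highest sum of FPKM of all 30 libraries, at 2.253e+06.

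FOXO1 was set apart by a few libraries. In T-cell dogs 028, 036 and 038 it was at 15.0, 9.13 and 8.49 FPKM at the six-week timepoint, against 11.8, 9.96 and 9.68 FPKM at the initial timepoint. In untyped dogs 024, 025, 026, 031_032 and 035 it was at 5.35, 16.3, 5.27, 5.67 and 8.29 FPKM at the six-week timepoint, against 4.12, 5.45, 4.13, 4.29 and 8.40 FPKM at the initial timepoint. Dog 025 alone had a six-week value far above the initial values of its group. In the B-cell dogs the lowest, median and highest values were 3.22, 7.53 and 28.9 FPKM at the six-week timepoint, against 3.97, 7.69 and 27.8 FPKM at the initial timepoint. Dog 029 held the high end at both timepoints and dog 034, at 14.9 FPKM against 5.43 FPKM, was the next highest at 6 weeks.

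**Figure D1:**
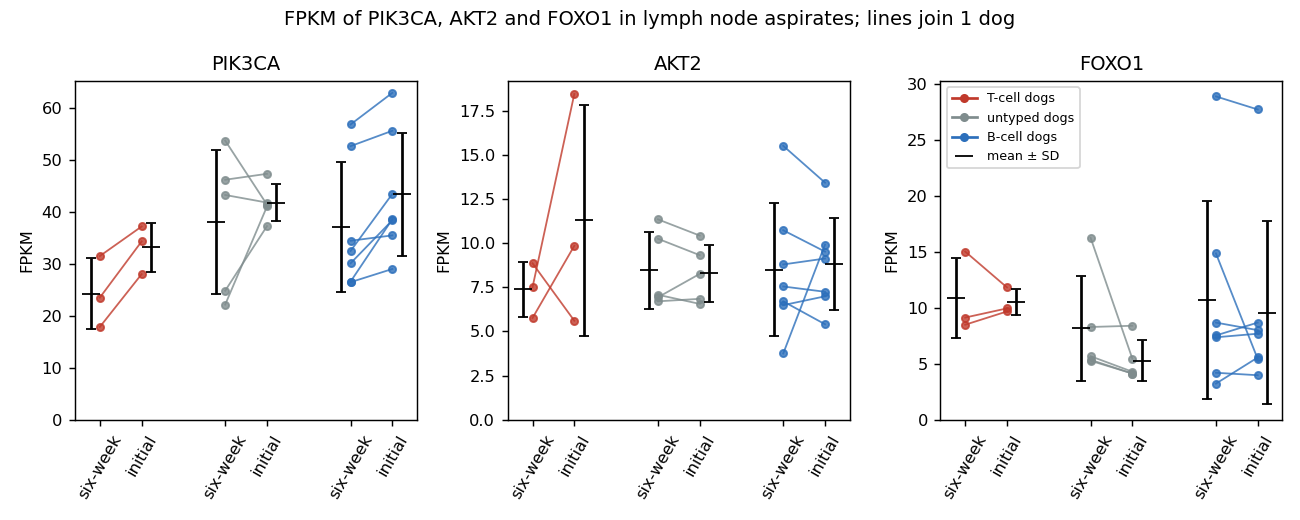
FPKM of PIK3CA, AKT2 and FOXO1 (y axis, linear from 0) at the six-week and the initial timepoint (x axis) in 3 T-cell, 5 untyped and 7 B-cell dogs, with a line for each dog and the mean ± SD in black. Most PIK3CA lines lie lower at 6 weeks, AKT2 lines cross, and for FOXO1 dog 029 stands above all others at 28.9 and 27.8 FPKM.

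The six-week timepoint was compared with the initial timepoint to ask what changed over treatment within each dog. PIK3CA was lower at 6 weeks in 13 of 15 dogs, by 0.27 ± 0.0881 on the log2 scale on average (SE; 95% interval -0.46 to -0.09), and in its other 2 dogs, 024 and 026, it was higher. AKT2 was lower in 7 dogs and higher in 8, with a mean log2 change of -0.13 ± 0.130 (SE; -0.40 to 0.15). FOXO1 was higher in 9 dogs and lower in 6, with a mean log2 change of 0.20 ± 0.135 (SE; -0.08 to 0.49). None of the 3 passed the test over all genes, for which limma was fitted to log2(FPKM + 1) of genes with a mean FPKM above 1, with the dog as a block, at a Benjamini-Hochberg adjusted p under 0.05. The adjusted p from limma was 0.303 for PIK3CA, 0.714 for AKT2 and 0.537 for FOXO1. That test called 0 of 14257 genes, a background of 0%, while 1823 had an unadjusted p under 0.05, PIK3CA among them at 0.00632. In the 18 libraries with usable counts edgeR also called 0 genes and DESeq2 called 581, none of them PIK3CA, AKT2 or FOXO1. Taken alone, the PIK3CA change had a two-sided exact permutation p of 0.00549 (sign flips over 15 dogs), which is adjusted for no other gene. The exact permutation p was 0.368 for AKT2 and 0.191 for FOXO1.

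The PIK3CA change was unequal between the dogs with usable counts and the others. It averaged -0.41 ± 0.299 (SD) in the 9 dogs whose counts and FPKM ranked genes alike, 8 of which were lower at 6 weeks, and -0.07 ± 0.244 (SD) in the other 6 dogs, 5 of which were lower. AKT2 averaged -0.32 ± 0.563 in the same 9 dogs and 0.17 ± 0.240 in the other 6, and FOXO1 0.28 ± 0.680 and 0.09 ± 0.195 (SD). The difference between these sets of dogs was not tested. The smaller set has the size and immunophenotype makeup that the paper gives for its smaller group by expression. Whether they are the same dogs was not tested.

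By immunophenotype, PIK3CA was lower at 6 weeks in 3 of 3 T-cell dogs, 3 of 5 untyped dogs and 7 of 7 B-cell dogs. The mean log2 change was -0.46 ± 0.202 in T-cell dogs, -0.21 ± 0.157 in untyped dogs and -0.24 ± 0.133 in B-cell dogs (SE). Marker scores of other cells were higher at 6 weeks in 3 of 3 T-cell dogs, on average by 1.70 for macrophages and monocytes, 1.14 for stroma and endothelium and 1.46 for plasma cells on the log2 scale, and in B-cell dogs the mean changes were 0.09, 0.07 and 0.11. The part of these cells in the changes of the 3 genes was not tested. With limma the adjusted p was 0.219 in T-cell dogs and 0.935 in B-cell dogs, with 0 of 14257 genes called in each label (2862, 650 and 548 at an unadjusted p under 0.05 in T-cell, untyped and B-cell dogs). The exact permutation p of PIK3CA in the B-cell dogs was 0.0156, the smallest that 7 dogs allow, and in the T-cell dogs 0.25, the smallest that 3 dogs allow. The change in T-cell dogs minus that in B-cell dogs was -0.22 for PIK3CA (95% interval -0.74 to 0.29), -0.34 for AKT2 (-1.08 to 0.41) and -0.08 for FOXO1 (-0.84 to 0.68), and limma called 0 genes for this difference (2187 at an unadjusted p under 0.05). The intervals allow differences of up to 1.08 on the log2 scale, so that the labels are not shown to respond alike.

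AKT2 had a mean log2 change of -0.43 ± 0.295 in T-cell dogs, 0.02 ± 0.228 in untyped dogs and -0.10 ± 0.193 in B-cell dogs (SE). Without dog 028, the T-cell dog in which it was higher at 6 weeks, the T-cell value was -0.94. The adjusted p by limma was then 0.0532, the lowest of any of the 3 genes under any setting tried. That fit called 1509 genes, with dogs 036 and 038 as its T-cell dogs. The six-week library of dog 036 had the lowest total count (4318394). Its sum of FPKM, 1.54e+06, was the highest after that of dog 033 at 6 weeks. The part of this scale in the AKT2 value was not tested. Without dog 038, in which the AKT2 log2 change was -1.19, the T-cell value was -0.05. The marker scores of dog 038 went against its label. Without dog 033 the B-cell value was 0.09. FOXO1 had a mean log2 change of 0.01 ± 0.302 in T-cell dogs, 0.47 ± 0.234 in untyped dogs and 0.09 ± 0.197 in B-cell dogs (SE). The untyped value rested in part on dog 025, without which it was 0.23, and the B-cell value on dog 034, without which it was -0.11.

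**Figure D2:**
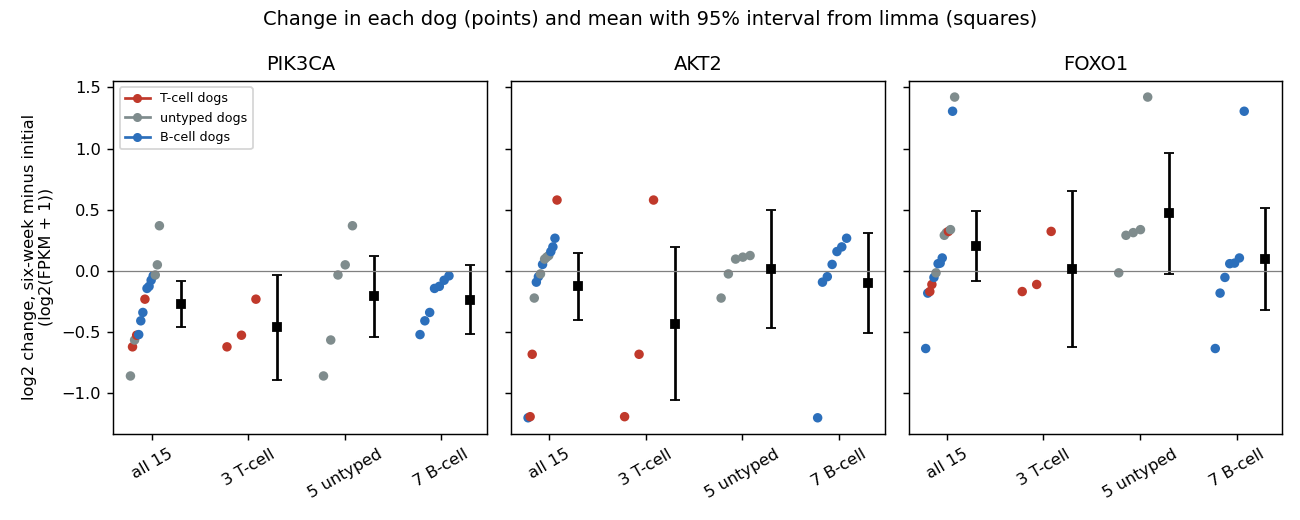
Log2 change, six-week minus initial, of PIK3CA, AKT2 and FOXO1 (y axis, log2(FPKM + 1)) in each dog, coloured by immunophenotype, with the mean and its 95% interval from limma as a black square, for all 15 dogs and for the 3 T-cell, 5 untyped and 7 B-cell dogs (x axis). The PIK3CA points lie below 0 in 13 of 15 dogs, and single dogs stand far from the rest for AKT2 (033, 038) and FOXO1 (025, 034).

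Marker genes of the cells an aspirate can hold were read beside the 3 genes. All 9 measured T cell markers had a positive log2 change over the 15 dogs, with a median of 0.70, and all 11 measured genes of dividing cells, MKI67 and TOP2A among them, had a negative one, with a median of -0.51, against a median of -0.01 over all 14257 genes. None of these markers was called. The T cell score ranged over 1.62 to 6.32 at the six-week timepoint and over 1.12 to 6.48 at the initial timepoint, and the dividing cell score over 3.42 to 6.37 and 3.83 to 6.41. The score of CD22 and PAX5 was lower at 6 weeks in 12 of 15 dogs, but in T-cell dog 036 it was 4.25 at 6 weeks against 0.73 at the initial timepoint. The plasma cell markers (4 of 4), macrophage and monocyte markers (5 of 5) and stroma and endothelium markers (6 of 6) all had positive mean changes, with medians of 0.41, 0.60 and 0.39, and none was called. Single dogs were less uniform. The score was higher at 6 weeks in 12 of 15 dogs for plasma cells, 9 for macrophages and monocytes, 10 for stroma and endothelium and 9 for T cells. The dividing cell score was lower in 11 of 15 dogs. Of 4 general leukocyte genes 1 had a positive change and the median was -0.02.

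The changes of the 3 genes were set against the changes of these scores over the 15 dogs, in 12 relations. The change in PIK3CA correlated with that of the dividing cell score (Pearson's r = 0.695, permutation p = 0.00377, adjusted over the 12 relations 0.03; Spearman's rho = 0.643, permutation p = 0.0114, adjusted 0.137). Without dogs 034 and 025, the farthest from the median of that score, r was 0.650 (permutation p = 0.0166), and it was 0.617 within the 9 dogs with usable counts and 0.487 within the other 6. Dogs 025 and 034, with dividing cell scores 1.44 and 2.24 lower at 6 weeks, had PIK3CA changes of -0.86 and -0.52. The change in FOXO1 correlated with that of the T cell score by Pearson's r (0.696, permutation p = 0.005, adjusted 0.03) but less clearly by rank (rho = 0.429, permutation p = 0.114, adjusted 0.685). That relation rested on dogs 025 and 034, whose T cell scores were 3.74 and 2.37 higher at 6 weeks and whose FOXO1 changes were 1.42 and 1.31. The macrophage and monocyte scores of dogs 025 and 034 were also higher at 6 weeks, by 3.13 and 2.32. Without them r was 0.190 (permutation p = 0.531), and it was 0.733 within the 9 dogs that include both and -0.29 within the other 6. The same dogs carried the relation of FOXO1 with the dividing cell score, at r = -0.57 with all dogs (permutation p = 0.0311, adjusted 0.124) and 0.259 without them. No relation of AKT2 with a score had an adjusted permutation p below 0.622. Whether the cell makeup has a part in the changes of the 3 genes was not tested.

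**Figure D3:**
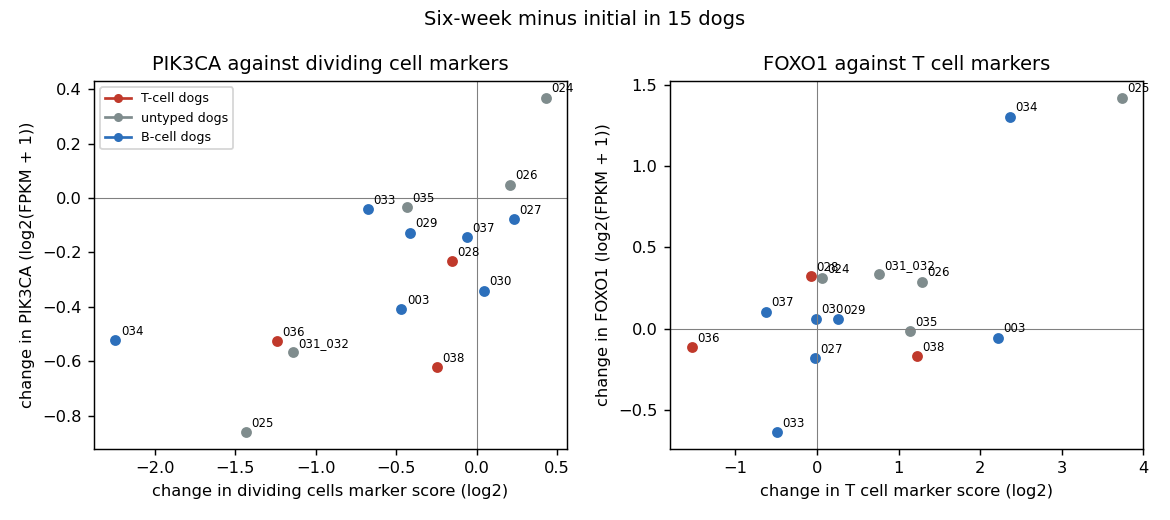
Change in PIK3CA against change in the dividing cell score (left) and change in FOXO1 against change in the T cell score (right), six-week minus initial, on log2 scales, with 1 point for each of 15 dogs, numbered and coloured by immunophenotype. In the left panel low PIK3CA changes mostly lie at low score changes (r = 0.695, rho = 0.643 with an adjusted permutation p of 0.137), and in the right panel dogs 025 and 034 stand apart at the upper right (r = 0.696 with them and 0.190 without).

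Other genes of the pathway were read from 6 lists with 72 genes, of which 29 had an ID and 28 passed the filter on low values. The symbols come from result tables that were cut off in order of p, so that genes with an ID are mostly those with small p in the study's own comparisons and are not a neutral sample. Over the 15 dogs 0 of the 28 were called, 15 had a positive and 13 a negative log2 change, and the median was 0.09. Of the PI3K subunits (PIK3R5, PIK3C2A, PIK3C3 and PIK3R4) 2 had a positive and 2 a negative change, all between -0.08 and 0.20. Of 6 phosphatases and brakes 3 were positive and 3 negative. Of 5 AKT and mTOR kinases and regulators 1 was positive, and FOXO4, the only other FOXO factor with an ID, had a change of 0.21 ± 0.142 (SE).

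The largest log2 changes over the 15 dogs were in IL7R, S1PR1 and ZAP70. IL7R encodes the IL-7 receptor alpha chain and is a FOXO1 target. It had a median of 6.62 FPKM (range 0.853 to 152.8) at the six-week timepoint and 2.75 FPKM (0.424 to 131.2) at the initial timepoint, with a log2 change of 1.22 ± 0.461 (SE) and an adjusted p of 0.316 by limma. IL7R was at 109.1 against 2.36 FPKM in dog 025, at 68.4 against 2.62 FPKM in dog 036 and at 102.2 against 10.1 FPKM in dog 034. Dogs 025 and 034 are those in which FOXO1 and the T cell score were much higher at 6 weeks, and in dog 036 the FOXO1 change was -0.11. S1PR1 encodes the receptor by which lymphocytes leave lymph nodes and is a target of KLF2, itself under FOXO1. It had a median of 5.45 FPKM (0.282 to 34.8) at the six-week timepoint and 15.5 FPKM (0.302 to 51.7) at the initial timepoint, with a log2 change of -0.95 ± 0.319 (SE) and an adjusted p of 0.305 by limma. Thus 2 genes of the FOXO1 target list had changes of opposite sign, and of the 7 targets tested 4 were positive and 3 negative. ZAP70, a T cell receptor kinase, had a log2 change of 0.91 ± 0.354 (SE, adjusted p 0.327 by limma). ZAP70, LCK and CD28 are in both the list of antigen receptor inputs and the T cell marker list, which therefore share values.

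By label, S1PR1 had the largest change in the B-cell dogs, at -1.49 ± 0.452 (SE), where its median was 5.45 FPKM at the six-week timepoint against 17.1 FPKM at the initial timepoint. CD28 (0.77) came next in the B-cell dogs. In the untyped dogs the largest were IL7R (2.12), ZAP70 (1.83) and ICOS (1.47), beside a T cell score that was higher at 6 weeks in 5 of 5 untyped dogs, by 1.40 on average, and 9 of 9 positive T cell markers with a median of 1.43. In the T-cell dogs IL7R (1.40) and RPTOR, which encodes the mTORC1 scaffold (-1.31), had the largest changes. The RPTOR value rested on dog 036, in which its log2 change was -3.73. There RPTOR was at 0.132 FPKM at the six-week timepoint, near 0, in the library with the lowest total count (4318394). The change in T-cell dogs minus that in B-cell dogs was largest for BTK (1.43), RPTOR (-1.26) and TXNIP, a FOXO target that restrains glucose uptake (1.21). None of these was called by limma.

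**Figure D4:**
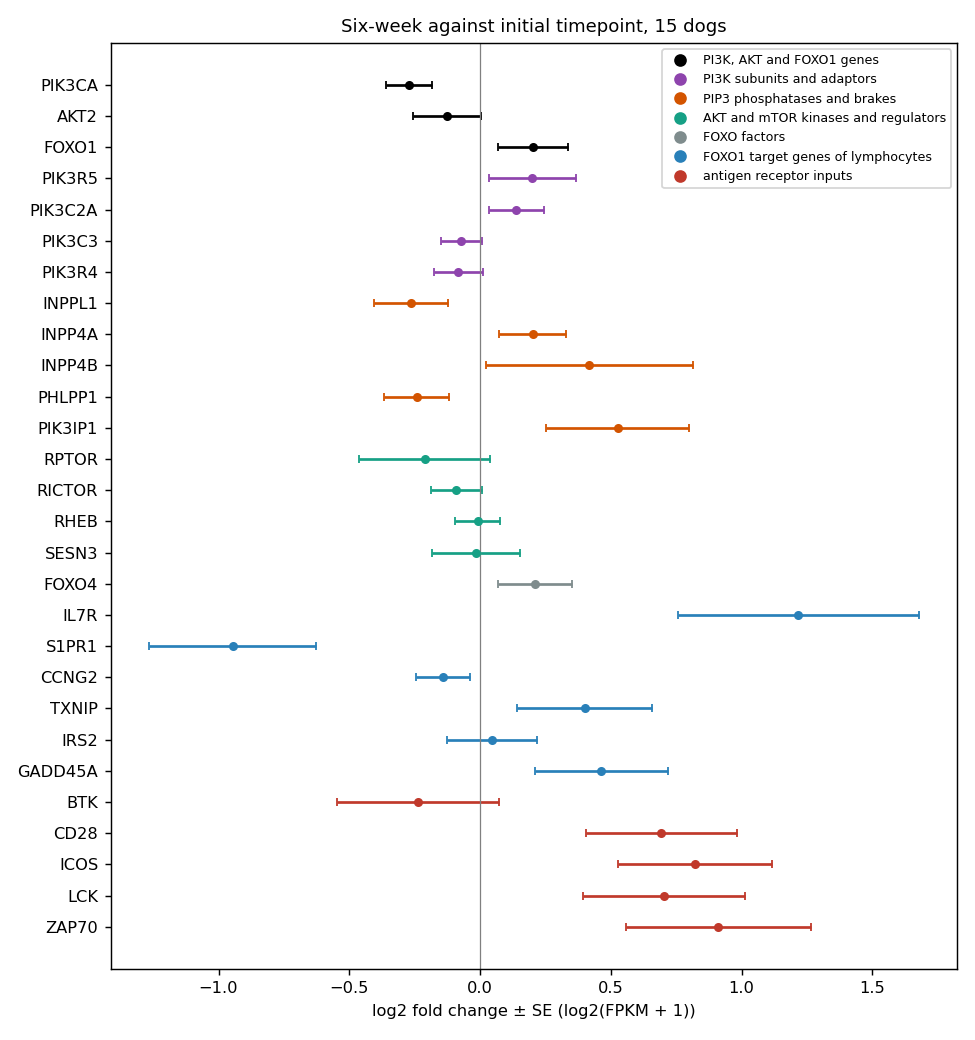
Log2 fold change, six-week over initial, with SE (x axis, log2(FPKM + 1)) of PIK3CA, AKT2, FOXO1 and 25 other pathway genes (rows, coloured by list) over 15 dogs. Points lie on both sides of 0 in most lists, from -0.95 for S1PR1 to 1.22 for IL7R, and none was called.

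The T-cell dogs were compared with the B-cell dogs at each timepoint to ask whether the 3 genes differ by immunophenotype. At the initial timepoint PIK3CA averaged 33.1 ± 4.68 FPKM in T-cell dogs and 43.3 ± 11.9 FPKM in B-cell dogs (SD, n = 3 and 7), with overlapping ranges. Its log2 fold change was -0.34 ± 0.209 (SE), with an adjusted p of 0.333 by limma. Without dog 038 the PIK3CA value was -0.23 ± 0.240, without dog 029 -0.43 ± 0.189 and without both -0.32 ± 0.211 (SE). AKT2 averaged 11.3 ± 6.55 FPKM in T-cell dogs and 8.81 ± 2.60 FPKM in B-cell dogs (SD), with a log2 fold change of 0.23 ± 0.298 (SE) and an adjusted p of 0.670 by limma. The sign of this difference rested on dog 038, and without that dog the AKT2 log2 fold change was -0.17 ± 0.288 (SE). Without dog 029 it was 0.25 ± 0.311 and without both dogs -0.15 ± 0.2965 (SE).

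FOXO1 averaged 10.5 ± 1.17 FPKM in T-cell dogs and 9.59 ± 8.19 FPKM in B-cell dogs at the initial timepoint (SD, n = 3 and 7). The T-cell values lay between 9.68 and 11.8 FPKM, above every B-cell dog but 029, since the other 6 were at 3.97 to 8.68 FPKM. The lowest of the T-cell values was that of dog 038, whose marker scores went against its label. The share of all genes that order the dogs in this way was not counted. On the log2 scale the difference was 0.36 ± 0.400 (SE, limma adjusted p 0.619). Without dog 038 it was 0.41 ± 0.477 (SE) with an adjusted p of 0.588. Without dog 029, the library labelled B-cell with a high T cell score, it was 0.64 ± 0.249 (SE) with an adjusted p of 0.107. Without dogs 029 and 038 it was 0.69 ± 0.293 (SE) with an adjusted p of 0.0991, all by limma. None of these passed the threshold. The exact permutation p with all 10 dogs was 0.15 for PIK3CA, 0.5 for AKT2 and 0.517 for FOXO1, and 0.0167 is the smallest that 3 against 7 dogs allow.

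Over all genes, limma called 49 of 13565 between T-cell and B-cell dogs at the initial timepoint (0.361%), 16 higher (0.118%) and 33 lower (0.243%) in T-cell dogs, and none was among the 3 genes or the 28 other pathway genes. Without dog 038 limma called 2403 genes (17.7%), without dog 029 it called 1368 (10.2%) and without both 3495 (26.2%), and PIK3CA, AKT2 and FOXO1 remained uncalled in each. Leaving out 1 other dog gave 1 to 26 calls, with 1 call without dog 028, 1 without dog 036 and 2 without dog 003. Dogs 029 and 038 were singled out by their marker scores, so the fits without them favour genes that follow cell type.

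Among the other pathway genes the largest differences at the initial timepoint were in INPP4B, CD28 and BTK. INPP4B, a phosphatase of PI3K-derived lipids, was at 644.9, 192.3 and 2.35 FPKM in T-cell dogs 028, 036 and 038, against a median of 1.39 FPKM (0.0877 to 27.0) in B-cell dogs. Its log2 fold change was 4.59 ± 1.22 (SE, adjusted p 0.0695 by limma). CD28, the T cell costimulatory receptor that recruits PI3K, had a median of 52.5 FPKM (1.88 to 92.8) in T-cell dogs and 1.24 FPKM (0.0944 to 28.4) in B-cell dogs, a difference of 3.04 ± 0.972 on the log2 scale (SE, limma adjusted p 0.0970). BTK, a kinase downstream of the B cell receptor, had a median of 8.13 FPKM (3.01 to 127.4) in T-cell dogs and 125.6 FPKM (41.5 to 178.5) in B-cell dogs, a difference of -2.78 ± 0.737 on the log2 scale (SE, limma adjusted p 0.0695). For INPP4B, CD28 and BTK the T-cell dog nearest to the B-cell dogs was 038.

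Without dog 038, 10 of the 28 pathway genes were called at the initial timepoint, 7 higher and 3 lower in T-cell dogs, against 17.7% of all genes. Of the brakes, INPP4B was higher by 6.83 ± 0.882 and PIK3IP1, an inhibitor of the PI3K catalytic subunit, by 2.94 ± 0.731 on the log2 scale (SE). The T cell genes CD28 (4.58 ± 0.849) and LCK (2.72 ± 0.740) were higher, and BTK was lower, with a log2 fold change of -4.25 ± 0.449 (SE). S1PR1 was lower (-2.83 ± 0.704) and IRS2, an adaptor of the insulin receptor and a FOXO1 target, was higher (1.42 ± 0.422, SE). The adjusted p of these 7 genes by limma was between 2.39e-05 and 0.0321. ZAP70 and RICTOR, the mTORC2 scaffold, were also higher. Without dog 029, 6 of the 28 were higher and 1 lower, against 10.2% of all genes, and without both dogs 10 were higher and 3 lower, against 26.2%. At the six-week timepoint 0 of the 28 were called in any of these fits, against 0.0330% of all genes without dog 038, 0% without dog 029 and 0.0730% without both.

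**Figure D5:**
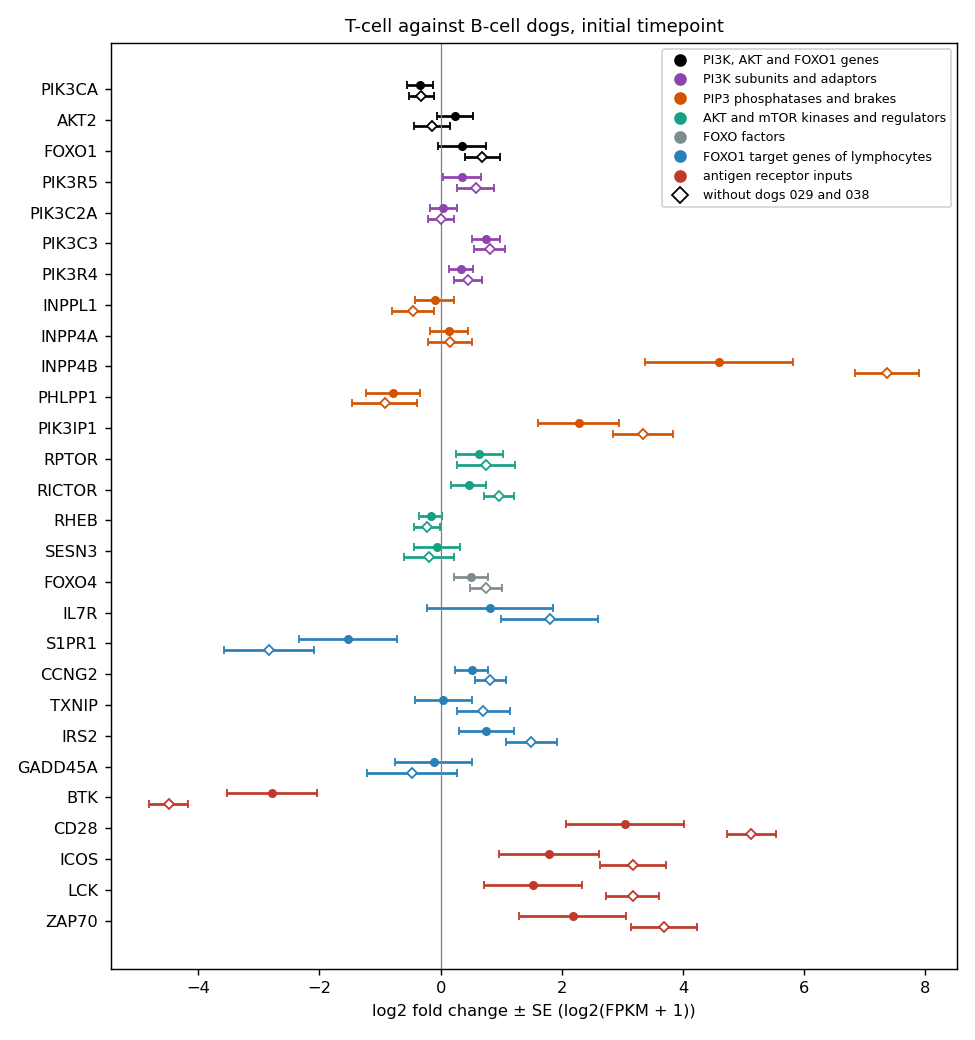
Log2 fold change, T-cell over B-cell dogs at the initial timepoint, with SE (x axis, log2(FPKM + 1)), of PIK3CA, AKT2, FOXO1 and 25 other pathway genes (rows, coloured by list), with all dogs (filled circles) and without dogs 029 and 038 (open diamonds). PIK3CA, AKT2 and FOXO1 lie within 0.69 of 0 in both fits, while INPP4B (4.59 with all dogs) and BTK (-2.78) lie far from 0.

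At the six-week timepoint PIK3CA averaged 24.2 ± 6.85 FPKM in T-cell dogs and 37.0 ± 12.5 FPKM in B-cell dogs (SD, n = 3 and 7). The ranges overlapped only through the T-cell dog 028, and on the log2 scale the difference was -0.57 ± 0.325 (SE, limma adjusted p 0.640, exact permutation p 0.0833). AKT2 averaged 7.38 ± 1.56 FPKM in T-cell dogs and 8.51 ± 3.77 FPKM in B-cell dogs, and FOXO1 10.9 ± 3.61 FPKM in T-cell dogs and 10.7 ± 8.88 FPKM in B-cell dogs (SD). The log2 fold change was -0.11 ± 0.323 for AKT2 and 0.28 ± 0.498 for FOXO1 (SE), with overlapping ranges for both. Without dog 038 the PIK3CA value was -0.37 ± 0.376, without dog 029 -0.63 ± 0.333 and without both -0.44 ± 0.384 (SE). The FOXO1 value was 0.42 without dog 038, 0.55 without dog 029, 0.69 ± 0.488 (SE) without both and 0.04 without dog 028, and it was 0.13 without dog 030 and 0.08 without dog 033. AKT2 was at -0.13 without dog 038, -0.04 without dog 029 and -0.06 without both, and none of the 3 genes was called by limma in these fits. Here limma called 0 of 15346 genes, and the unadjusted p was under 0.05 for 1271. INPP4B (3.40), ICOS, a T cell costimulatory receptor that recruits PI3K (2.06), and CD28 (2.04) had the largest log2 fold changes among the other pathway genes at 6 weeks.

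The untyped dogs were compared with the B-cell dogs at the initial timepoint. FOXO1 averaged 5.28 ± 1.83 FPKM in untyped dogs and 9.59 ± 8.19 FPKM in B-cell dogs (SD, n = 5 and 7), a difference of -0.55 ± 0.339 on the log2 scale (SE, limma adjusted p 0.995). Without dog 029 the B-cell dogs were at 3.97 to 8.68 FPKM and the untyped dogs at 4.12 to 8.40 FPKM, within the same range. PIK3CA averaged 41.7 ± 3.60 FPKM in untyped dogs and 43.3 ± 11.9 FPKM in B-cell dogs, and AKT2 8.29 ± 1.64 FPKM and 8.81 ± 2.60 FPKM (SD). Their log2 fold changes were -0.01 (95% interval -0.39 to 0.36) and -0.05 (-0.59 to 0.48). All 7 FOXO1 targets had negative log2 fold changes, with a median of -0.73 against -0.06 over all genes, and none was called. The sign was not particular to the targets. Of all 28 pathway genes, the targets included, 25 were negative, with a median of -0.35, and 41.5% of all genes were positive. The 3 largest differences of single pathway genes were in IL7R (-1.60), LCK, the T cell receptor kinase (-1.41), and ICOS (-1.29). The T cell markers moved with them, since 9 of 9 were negative with a median of -1.21, and the T cell score was 1.12 to 2.13 in untyped dogs and 1.33 to 5.87 in B-cell dogs. Of all genes, limma called 0 of 13565, and the unadjusted p was under 0.05 for 403.

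For each of the 3 genes, the genes with a symbol that ranked the 15 initial libraries most like it were listed, out of 3806. For PIK3CA they were NUP54, a nuclear pore protein (Spearman's rho = 0.921), ODC1, the first enzyme of polyamine synthesis (0.882), and TXNL1, a thioredoxin-like protein (0.868). For AKT2 they were E4F1, a zinc finger factor (0.896), PRPF6, a splicing factor (0.893), and MPRIP, a myosin phosphatase partner (0.875). For FOXO1 they were ZBTB14, a zinc finger factor (0.911), AVL9 (0.886), and CELF2, an RNA-binding protein (0.871). Each is the maximum over 3806 genes in 15 libraries that share depth and cell makeup, and is given as a description.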

How the data were processed

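RNA-seq of lymph node aspirates from 15 dogs at 2 timepoints was analysed. The submitters' processing notes name HISAT2 2.1.0, StringTie 1.3.3 and CanFam3.1. FPKM values per gene were deposited by the authors without log transformation, and unscaled read counts per gene were deposited by the authors for the same libraries and gene IDs. Symbols came from the study's supplementary gene tables, which name 5086 of the 32704 IDs, and no sequence or coordinate was available for these IDs here. A gene's reads can be shared with near-identical copies, and the handling of these was not given in the sources used here.

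limma 3.58.1 in R 4.3.3, with a mean-variance trend, was fitted to log2(FPKM + 1), a pseudocount of 1 that understates changes of low genes, for all genes with a mean FPKM above 1 in the libraries of the fit. Changes used the dog as a block, and p-values were adjusted over all genes by Benjamini-Hochberg at 0.05. Labels shared 1 estimate of the spread. Exact permutation tests were two-sided. Permutation p of correlations used 100000 resamples. edgeR 4.0.16 (quasi-likelihood) and DESeq2 1.42.0 were alternatives on counts with a mean above 50 in the 18 libraries in which counts and FPKM had a Spearman's rho above 0.8. Other alternatives were a pseudocount of 0.1, no filter, a filter at 5, upper-quartile scaling, no dog block and leaving out each dog. Python 3.11.15 with NumPy 2.4.6, pandas 2.3.3 and SciPy 1.17.1 was used for descriptions. On simulated data limma was tested for the changes over all dogs and in B-cell dogs and for T-cell against B-cell dogs before treatment. edgeR and DESeq2 were tested only for the change over all dogs, on simulated counts without differences between dogs. The other comparisons were not tested on simulated data.

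The libraries of a dog come from the same animal by their sample names, except for dog 031_032, paired because no other partner was left. Deviations from the group means correlated within a dog with a median of 0.521 and a lowest value of -0.0564, above 0.1 in 13 of 15 dogs. In 11 of 15 the best match of a library was its own partner. It was not in dogs 025, 034, 036 and 037, with correlations of 0.0799, 0.301, -0.0564 and 0.219, for a cause that was not tested. The single-dog changes of FOXO1 in dogs 025 and 034, of IL7R in dogs 025, 034 and 036 and of RPTOR in dog 036 lie in these pairs. No library was a copy of another by its counts, compared within the 18 libraries named above and within the other 12 (219 pairs, with a chi-square per degree of freedom of at least 15.1).

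The 3 genes were named in every comparison. Of the other pathway genes, those called were named, up to the 8 of smallest p, or the 3 with the largest log2 fold change where fewer than 3 were called, and for each of the 3 genes the 3 most like it. Single pathway genes that are counted but not named are not reported here. The genes, lists and rules were chosen with earlier results of these data known. The study's own groups of dogs by expression are not in the labels and were not used as groups. Counts and FPKM ranked genes differently in dogs 027, 029 and 030 (B-cell), 028 (T-cell), 024 and 035 (untyped). In size and immunophenotype this set matches what the paper gives for its smaller group. Whether they are the same dogs was not tested.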

Additional observations from a re-analysis of the deposited data

Results flagged for a closer look

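In 18 groups of 5 or 7 dogs, the highest or lowest dog's gap to its neighbour was compared with Dixon's 95% critical value. The groups were of untyped (5) or B-cell (7) dogs and share dogs, so they are not independent. For normally distributed values chance exceeds that value in about 1 in 20 groups, and FPKM was not log transformed here. The critical value was exceeded in 5 groups. 4 of the 5 concerned FOXO1. In B-cell dogs the initial FOXO1 level of dog 029, 27.76 FPKM, stood above the next value of 8.68 FPKM. In B-cell dogs the FOXO1 log2 change of dog 034, 1.305, stood above the next of 0.10. In untyped dogs the six-week FOXO1 level of dog 025, 16.28 FPKM, stood above the next of 8.29 FPKM, and its log2 change of 1.421 above the next of 0.34. In B-cell dogs the AKT2 log2 change of dog 033, -1.203, stood below the next of -0.09. The FPKM of the six-week library of dog 033 summed to 2.253e+06, against 1.54e+06 in the next highest, the six-week library of dog 036. Every marker score of dog 033 was lower at 6 weeks, with a change of -0.69 for general leukocyte genes. The part of this scale in the AKT2 value was not tested. T cell scores were high or much higher at 6 weeks in dogs 029, 034 and 025, and the part of T cells in these values was not tested.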

How the results depend on the processing

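PIK3CA, AKT2 and FOXO1 passed the threshold in no comparison under any setting, and PIK3CA kept a negative change over all dogs and in each label throughout. Without the dog as replicate block the log2 change over all dogs stayed at -0.27 for PIK3CA, with an adjusted p of 0.9997 by limma, and at -0.13 and 0.20 for AKT2 and FOXO1, and no call changed. edgeR without a filter moved the median log2 fold change of all genes by -0.24 over all dogs and by -0.36 in T-cell dogs, and upper-quartile scaling moved it by 0.12 in T-cell dogs.

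Counts of called genes moved by more. Over all dogs, 3054 were called without a filter, 581 by DESeq2 and 1 by edgeR without a filter. In T-cell dogs, 13 were called with a pseudocount of 0.1, 40 by edgeR with either scaling, 55 by edgeR without a filter, 1589 by DESeq2 and 68 in the FPKM of the 18 libraries. For the difference in change these were 4, 10, 17, 770 and 9. For the T-cell and B-cell dogs at the initial timepoint, 13 were called without a filter, 108 with a mean FPKM above 5, 2 by edgeR, 3 by edgeR with DESeq2 size factors or without a filter, 1789 by DESeq2 and 15 in the FPKM of the 18 libraries, against 49. DESeq2 called 13 at 6 weeks, 8 between untyped and B-cell dogs, 2 for the change in B-cell dogs and 87 in untyped dogs. Leaving out dogs 029 and 038, chosen after the data were seen like the FPKM of the 18 libraries, gave 3495 before treatment and 11 at the six-week timepoint. Leaving out 1 dog gave 0 to 1509 calls in T-cell dogs (1509 without dog 028), 0 to 613 for the difference in change (613 without dog 028), 1 to 2403 between T-cell and B-cell dogs before treatment and 0 to 5 at the six-week timepoint, and 0 to 1 between untyped and B-cell dogs. The cause was not tested.

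Signs reversed for some values, none of which was called. The FOXO1 change in T-cell dogs was -0.0137 by edgeR, -0.46 by edgeR without a filter and -0.14 in the FPKM of the 18 libraries. The AKT2 change in untyped dogs was -0.0277 by edgeR, -0.0071 by DESeq2, -0.0072 with DESeq2 size factors, -0.33 without a filter and -0.0013 in the FPKM of the 18 libraries. With upper-quartile scaling the FOXO1 difference in change was 0.0081 and the PIK3CA difference of untyped from B-cell dogs 0.0080. Without dogs 029 and 038 the AKT2 difference of T-cell from B-cell dogs at the initial timepoint was -0.15. Leaving out 1 dog gave AKT2 changes of -0.16 to 0.0880 in B-cell and -0.0107 to 0.0762 in untyped dogs, FOXO1 changes of -0.11 to 0.22 in B-cell and -0.14 to 0.10 in T-cell dogs, and differences in change of -0.84 to 0.0439 for AKT2 and -0.24 to 0.12 for FOXO1. AKT2 ranged over -0.17 to 0.61 between T-cell and B-cell dogs at the initial timepoint, over -0.26 to 0.0429 at 6 weeks and over -0.15 to 0.0457 between untyped and B-cell dogs, where PIK3CA ranged over -0.10 to 0.0809.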
